A study of Homo sapiens with 6 samples.

Results

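The ERBB receptor, insulin receptor and FOXO genes were followed in HCC-LM3, an established human liver cancer line, given either the flavone apigenin or its solvent DMSO. The 10 genes were taken by symbol and comprise the receptors EGFR, ERBB2, ERBB3, INSR and IGF1R, the adaptors IRS1 and IRS2, and the transcription factors FOXO1, FOXO3 and KLF6. All 10 were found among the 23059 genes of the deposited tables, and all 10 were among the 15173 tested after the filter on low counts. RNA of 3 apigenin and 3 DMSO samples, called biological replicates in the labels, was sequenced, with dose and duration of treatment not given in the sources used here. All samples are of 1 cell line, and nothing says whether the replicates came from separate cultures, so that the p-values measure the spread between these samples. Levels are given as CPM (read counts scaled to a common library total with TMM factors) or, where genes are set against each other, as FPKM, which also divides by gene length. In such bulk samples, fewer cells expressing a gene and less of its RNA per cell cannot be told apart.

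The ERBB receptors bind ligands of the epidermal growth factor family, whereas INSR and IGF1R bind insulin and insulin-like growth factors and pass the signal to IRS adaptors. Both routes activate PI3K and the kinase AKT, which phosphorylates FOXO factors and keeps them out of the nucleus. When AKT activity is low, nuclear FOXO factors are known to raise transcription of receptor and adaptor genes, among them ERBB3, INSR and IRS2, a feedback described in tumour cells given inhibitors of PI3K or AKT. In hepatocytes FOXO1 and FOXO3 also drive genes of the fasting response. The genes were compared between the groups with this feedback in view. RNA levels measure neither AKT activity nor where FOXO proteins are in the cell.

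With apigenin, KLF6 and ERBB3 fell, FOXO3 rose, and the other 7 genes did not pass the test. KLF6 fell by 30.04%, ERBB3 fell by 21.8%, and FOXO3 rose 1.24-fold. Of the 3 receptor and adaptor genes named above as targets of the feedback, ERBB3 fell, and INSR and IRS2 did not pass. Over all tested genes, 6.99% passed the same test (2.76% higher and 4.22% lower with apigenin), against 1 of the 10 genes higher and 2 lower. The 10 genes were chosen with earlier results of these data known, so their count is a description.

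**Figure D1:**
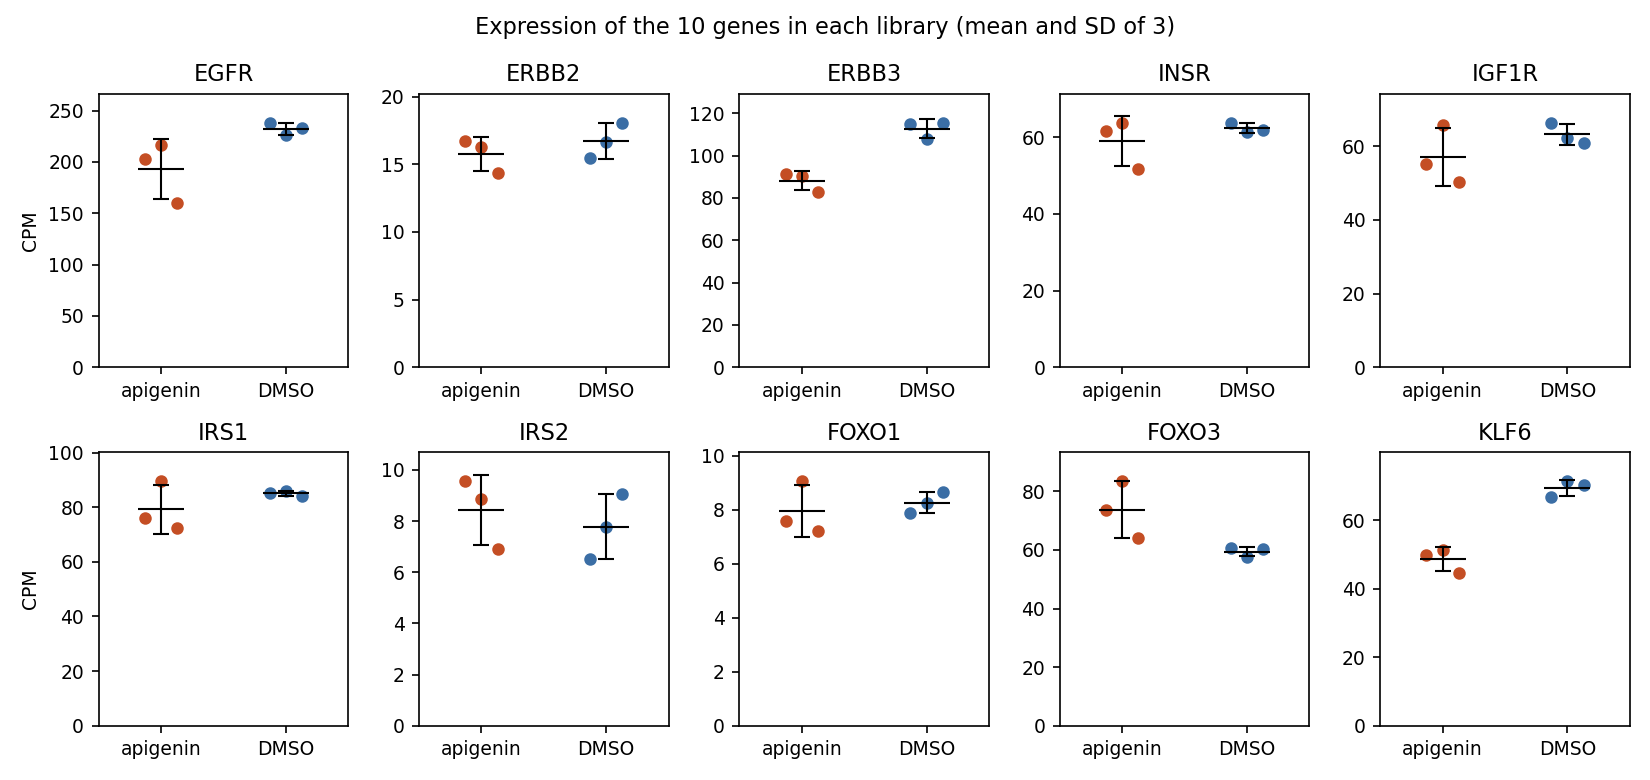
CPM of each of the 10 genes in the 3 apigenin libraries (left, orange) and the 3 DMSO libraries (right, blue), with points in the order of replicates 1 to 3, mean as a line and SD as bars. All apigenin points of KLF6, ERBB3 and EGFR lie under all DMSO points, those of FOXO3 lie above them, and the other 6 genes overlap.

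The libraries held 33882145 to 37983636 counts, and each of the 10 genes had between 232 and 8846 reads in each library, far above the limit of 3 counts that a reading of 0 would allow. Pairs of apigenin libraries had a chi-square of 8.81 to 27.5 per degree of freedom and pairs of DMSO libraries 4.35 to 5.15, where counting error alone gives about 1. Of 12 hepatocyte and hepatoma markers, all 12 averaged 1 CPM or more in one or both groups, and their sum was 3585 to 4096 CPM in apigenin libraries and 4118 to 4213 CPM in DMSO libraries. Most of that sum was keratin RNA, with KRT8 at 2387 CPM with apigenin and 2552 CPM with DMSO and KRT18 at 850 CPM with apigenin and 855 CPM with DMSO. Genes of secreted liver proteins averaged less with apigenin: ALB had 52.9 CPM with apigenin and 123 CPM with DMSO, APOB 49.9 CPM with apigenin and 84.0 CPM with DMSO, SERPINA1 19.9 CPM with apigenin and 40.6 CPM with DMSO, TTR 1.53 CPM with apigenin and 2.91 CPM with DMSO, and APOA1 0.575 CPM with apigenin and 1.48 CPM with DMSO. The factor gene HNF4A had 71.2 CPM with apigenin and 76.0 CPM with DMSO. The defining leukocyte gene PTPRC (0.124 CPM with apigenin and 0.127 CPM with DMSO) and endothelial gene CDH5 (0.00983 and 0.118 CPM in the same order) were near 0, while CD68, PECAM1, KDR and LUM were detected. The summed level of 4 leukocyte markers was 85.8 to 95.02 CPM with apigenin and 86.8 to 94.4 CPM with DMSO, that of 4 endothelial markers 87.1 to 96.3 CPM with apigenin and 105 to 111 CPM with DMSO, and that of 5 fibroblast or stellate markers 29.3 to 31.8 CPM with apigenin and 23.8 to 25.6 CPM with DMSO. Most of the leukocyte sum was CD68 (90.0 CPM with apigenin and 89.1 CPM with DMSO). Most of the fibroblast or stellate sum was LUM (29.0 and 23.1 CPM in the same order). The endothelial sum was mostly PECAM1 (44.3 and 51.0 CPM) and KDR (46.3 and 55.7 CPM). The part of these markers in the results was not tested.

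Gene length moved with the treatment, and the 10 genes are long. Relative to the DMSO mean, log2 CPM changed per doubling of gene length by -0.0707, -0.0211 and -0.147 in apigenin 1, 2 and 3, against 0.00148, -0.0047 and 0.00323 in DMSO 1, 2 and 3. The 10 genes measure 4590 (KLF6) to 14591 nucleotides (FOXO3), and all 10 exceed the median of the tested genes of 3872. Apigenin 3, with the steepest slope, had the lowest CPM of the 3 apigenin libraries for all 10 genes, and for 7 of the 10 once the trend was removed. Fold changes of the 10 genes are therefore also given with the smooth trend of each library on gene length removed, under which 10% of all tested genes passed (4.63% higher and 5.38% lower).

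KLF6 (chr10:3775996-3785209, GRCh38) encodes a zinc finger factor that binds GC-rich promoter sequences and restrains growth in liver cells. It had 49.8, 51.3 and 44.7 CPM in apigenin libraries 1, 2 and 3, against 66.9, 71.4 and 70.2 CPM in DMSO libraries 1, 2 and 3. The highest apigenin library thus stood under the lowest DMSO library. KLF6 averaged 48.6 ± 3.44 CPM with apigenin and 69.5 ± 2.33 CPM with DMSO (SD, n = 3 each), a log2 fold change of -0.52 ± 0.071 (SE, adjusted p = 0.000877, edgeR). It is the shortest of the 10 genes, and with the length trend removed its log2 fold change was -0.50 (adjusted p = 1.43e-05). The call held with any 1 library left out (log2 fold change -0.56 to -0.46, adjusted p up to 0.0142), and it was lost in 1 of 18 alternatives, limma on unfiltered log2(FPKM + 1) (adjusted p = 0.0512).

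ERBB3 (chr12:56080108-56103505) encodes a receptor with little kinase activity of its own that, once phosphorylated by a partner such as ERBB2 or EGFR, binds PI3K directly. It had 91.3, 90.4 and 83.0 CPM in apigenin libraries 1, 2 and 3, against 115, 108 and 116 CPM in DMSO libraries 1, 2 and 3. The groups did not overlap, and the 3 apigenin libraries lay close together. ERBB3 averaged 88.2 ± 4.57 CPM with apigenin and 113 ± 4.31 CPM with DMSO (SD, n = 3 each), a log2 fold change of -0.35 ± 0.063 (adjusted p = 0.00472). With the length trend removed it stood at -0.29 (adjusted p = 0.000666). The call was lost without DMSO 1 (-0.34, adjusted p = 0.0534) and by limma on unfiltered log2(FPKM + 1) (adjusted p = 0.0711), and it held in the other 16 of 18 alternatives.

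FOXO3 (chr6:108559825-108684774) encodes a forkhead factor that is widely expressed in adult tissues and acts on stress resistance, cell cycle exit and autophagy genes. It had 73.7, 83.4 and 64.0 CPM in apigenin libraries 1, 2 and 3, against 60.6, 57.5 and 60.3 CPM in DMSO libraries 1, 2 and 3. Every apigenin library stood above every DMSO library, but apigenin 3 was nearer to the DMSO libraries than apigenin 2 was. FOXO3 averaged 73.7 ± 9.72 CPM with apigenin and 59.5 ± 1.68 CPM with DMSO (SD, n = 3 each), a log2 fold change of 0.31 ± 0.085 (adjusted p = 0.0433). This call was close to the threshold: it held in 9 of 18 alternatives and was lost without apigenin 1, apigenin 2, DMSO 1, DMSO 2 or DMSO 3 (log2 fold change 0.21 to 0.32, adjusted p = 0.0549 to 0.177), with library totals only (adjusted p = 0.0542) and in the 3 fits of limma on log2 FPKM (adjusted p = 0.132 to 0.294).

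FOXO3 is the longest of the 10 genes and rose where long genes tended to fall. With the length trend removed its log2 fold change was 0.49 ± 0.056 (adjusted p = 7.01e-06), close in size to the fall of KLF6 under that setting. The 3 apigenin libraries then stood 0.48, 0.55 and 0.44 above the DMSO mean on the log2 scale, against 0.31, 0.49 and 0.11 before. In an alternative added after seeing the data, the length trend was removed and 1 library at a time left out, and FOXO3 passed each time (0.46 to 0.51, adjusted p up to 0.000245). A near-identical copy, FOXO3B, was listed with 101, 208 and 157 reads in apigenin libraries 1, 2 and 3 and 146, 181 and 130 reads in DMSO libraries 1, 2 and 3, or 4.04 to 8.41% of the FOXO3 reads. How the counting treated reads that match both is not given in the sources used here, and how far this changes the level of FOXO3 was not measured.

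**Figure D2:**
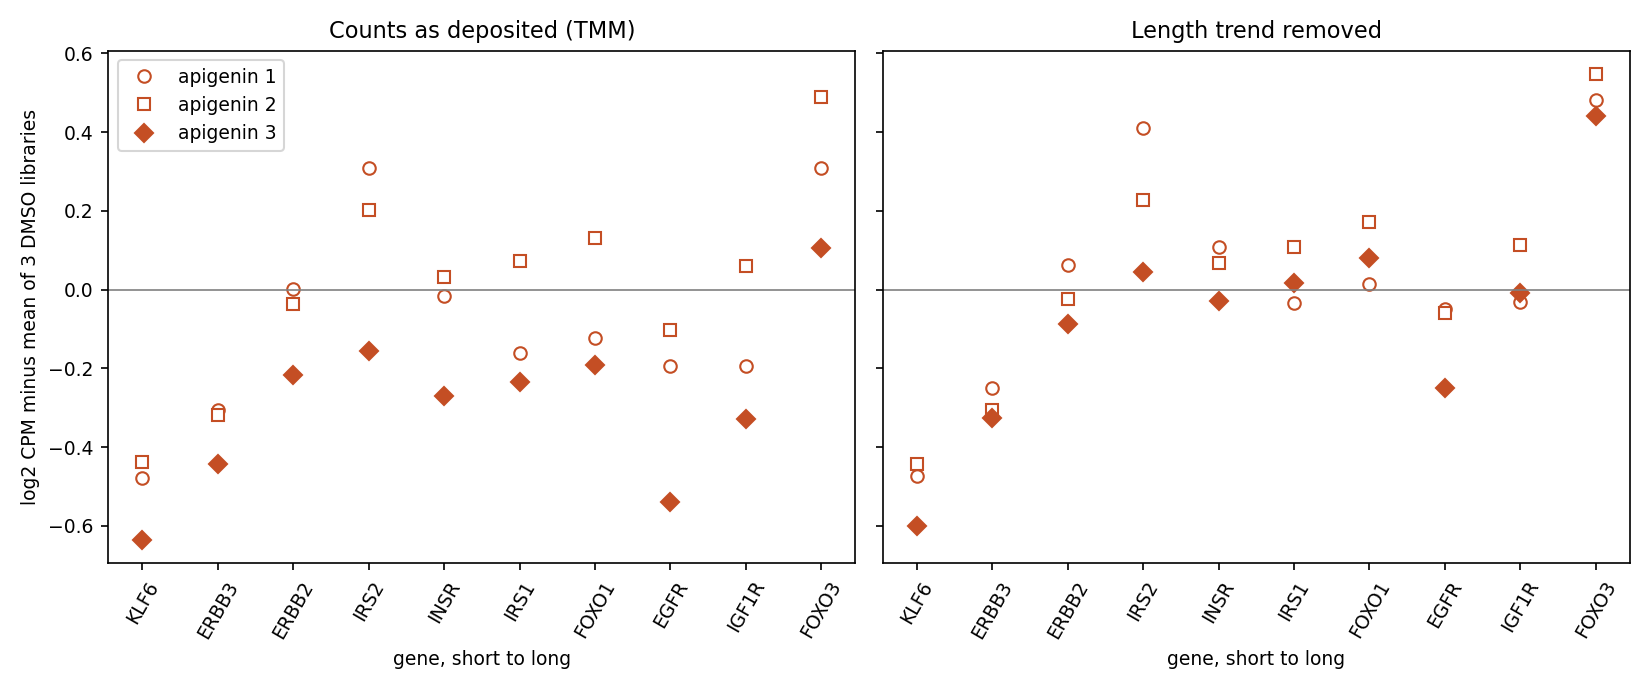
Log2 CPM of each gene in the 3 apigenin libraries minus the mean of the 3 DMSO libraries, with genes ordered from short to long, before (left) and after (right) the trend of each library on gene length was removed. The spread between apigenin libraries narrows for long genes on the right, FOXO3 stands at 0.44 to 0.55, and KLF6 and ERBB3 stay under 0 in all 3 libraries.

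The bases just upstream of the annotated starts of FOXO3 and KLF6, which changed with the treatment, and of IRS2, a known FOXO target, are shown because the feedback acts on transcription. Each is 250 bases before the start, read 5′ to 3′ on the strand of the gene, from RefSeq on GRCh38.p14. Capitals mark GCGTG or its reverse complement CACGC, the core bound by the aryl hydrocarbon receptor, in FOXO3 and KLF6, and TGTTTTG, the reverse complement of the insulin response element core CAAAACA, in IRS2. FOXO3 has other annotated starts, and the first on the chromosome is shown, chr6:108559575-108559824 on the plus strand.
FOXO3: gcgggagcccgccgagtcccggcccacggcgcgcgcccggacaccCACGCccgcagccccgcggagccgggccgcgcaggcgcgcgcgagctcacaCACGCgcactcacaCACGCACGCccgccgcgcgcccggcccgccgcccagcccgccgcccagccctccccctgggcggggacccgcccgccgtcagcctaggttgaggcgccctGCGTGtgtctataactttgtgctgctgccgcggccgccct
KLF6 is at chr10:3785210-3785459 on the minus strand.
KLF6: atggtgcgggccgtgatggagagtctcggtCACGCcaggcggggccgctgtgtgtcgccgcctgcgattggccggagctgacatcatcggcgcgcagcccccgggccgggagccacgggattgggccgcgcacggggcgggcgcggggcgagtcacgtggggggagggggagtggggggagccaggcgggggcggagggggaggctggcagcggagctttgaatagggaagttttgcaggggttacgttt
IRS2 is at chr13:109786584-109786833 on the minus strand.
IRS2: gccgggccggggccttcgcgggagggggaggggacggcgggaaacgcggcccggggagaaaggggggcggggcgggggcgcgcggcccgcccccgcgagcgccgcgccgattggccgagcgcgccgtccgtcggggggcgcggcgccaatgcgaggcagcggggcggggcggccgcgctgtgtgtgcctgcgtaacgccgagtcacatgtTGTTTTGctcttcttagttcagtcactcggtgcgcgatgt

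The stretch before FOXO3 held GCGTG at 5 places on either strand, of which a pair overlap by 1 base, and that before KLF6 held it at 1 place, 220 bases before the start. Of 13 promoters annotated for 9 of the genes (all but ERBB3), 6 held this core, against 32.2% of 35116 promoters of the same length. The exact letters GTAAACA, 1 form of the forkhead motif, were searched on both strands. They were in 0 of the 13 and in 2.98% of all promoters. Other forms of the motif were not searched. CAAAACA was in 1 of the 13, at 40 bases before the start of IRS2, and in 4.3% of all promoters. The GC box GGGCGG was in 10 of the 13 and in 42.6% of all promoters. The stretches shown had a GC content of 80.4% (FOXO3), 72.4% (KLF6) and 76.4% (IRS2), against a median of 58% over all promoters. Over the 13 it ran from 38.8% (the second EGFR start) to 81.2% (IGF1R). The shares were not adjusted for GC content, and FOXO3 and EGFR each give more than 1 of the 13 promoters. These counts describe letters in a window and not bound sites.

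EGFR (chr7:55019017-55211628) encodes the receptor of epidermal growth factor and had the highest mean FPKM of the 10 genes in both groups. It had 203, 216 and 160 CPM in apigenin libraries 1, 2 and 3, against 238, 226 and 233 CPM in DMSO libraries 1, 2 and 3. The groups did not overlap, as was the case for 4 of the 10 genes (EGFR, ERBB3, FOXO3 and KLF6) and for 29.4% of all tested genes (14.4% with apigenin higher and 15% with apigenin lower), but apigenin 3 stood far under the other apigenin libraries. The log2 fold change of EGFR was -0.27 ± 0.088 (95% interval -0.45 to -0.08, adjusted p = 0.0806) and did not pass. EGFR passed in 5 of 18 alternatives, among them DESeq2 (adjusted p = 0.032) and the fits without apigenin 2 (-0.36, adjusted p = 0.00471) or without apigenin 3 (-0.15, adjusted p = 0.0432). With the length trend removed it stood at -0.12 (adjusted p = 0.168). EGFR overlaps EGFR-AS1, which had 131 reads over the 6 libraries, and without strand information their reads cannot be told apart.

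ERBB2 (chr17:39688094-39728658) encodes the ERBB receptor without a known ligand of its own, the preferred partner of ERBB3. It had 16.7, 16.3 and 14.3 CPM in apigenin libraries 1, 2 and 3, against 15.4, 16.6 and 18.1 CPM in DMSO libraries 1, 2 and 3. These ranges overlapped, and the log2 fold change of -0.08 ± 0.105 did not pass (95% interval -0.31 to 0.14, adjusted p = 0.683). It was -0.02 with the length trend removed (adjusted p = 0.949). ERBB2 overlaps MIEN1, which had 9883 reads over the 6 libraries, while ERBB2 itself had 482 to 624 reads per library. How reads in the overlap were assigned is not given in the sources used here, so that the level of ERBB2 is uncertain.

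The 2 receptor genes of the insulin branch did not pass. INSR (chr19:7112265-7294414), the insulin receptor, had 61.6, 63.7 and 51.6 CPM in apigenin libraries 1, 2 and 3, against 63.7, 61.2 and 61.9 CPM in DMSO libraries 1, 2 and 3. IGF1R (chr15:98648539-98964530), the type 1 receptor of insulin-like growth factors, had 55.2, 65.8 and 50.3 CPM in the apigenin libraries, against 66.4, 62.3 and 60.9 CPM in the DMSO libraries. For both, apigenin 3 was the lowest of all 6 libraries and apigenin 2 lay within the DMSO range. The log2 fold changes were -0.08 ± 0.079 for INSR (95% interval -0.25 to 0.09, adjusted p = 0.594) and -0.15 ± 0.089 for IGF1R (95% interval -0.34 to 0.05, adjusted p = 0.341). With the length trend removed they were 0.05 for INSR and 0.03 for IGF1R, with 95% intervals of -0.07 to 0.17 and -0.10 to 0.15. IGF1R passed in 1 alternative, without apigenin 2 (-0.26, adjusted p = 0.0195).

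The adaptor genes did not pass either. IRS1 (chr2:226731312-226799820), which carries the insulin signal in muscle, fat and liver, had 76.0, 89.5 and 72.3 CPM in apigenin libraries 1, 2 and 3, against 85.2, 85.9 and 84.1 CPM in DMSO libraries 1, 2 and 3. The DMSO libraries of IRS1 lay within a CV of 1.06%, and the apigenin libraries spread on both sides of them with a CV of 11.4%. IRS2 (chr13:109752695-109786583), the adaptor that rises in the fasting liver of mice, had 9.55, 8.87 and 6.91 CPM in apigenin libraries, against 6.51, 7.76 and 9.06 CPM in DMSO libraries, and the groups overlapped over nearly their whole range. The log2 fold change of IRS1 was -0.10 ± 0.077 (95% interval -0.27 to 0.06, adjusted p = 0.453), and that of IRS2 was 0.12 ± 0.158 (-0.22 to 0.46, adjusted p = 0.694). With the length trend removed IRS1 stood at 0.03 and IRS2 at 0.22 (95% interval -0.08 to 0.53). IRS1 passed in 1 alternative, without apigenin 2 (-0.20, adjusted p = 0.034).

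FOXO1 (chr13:40555667-40666641), the forkhead factor best known for gluconeogenic genes in liver, had a lower FPKM than FOXO3 in every library. It had 7.58, 9.06 and 7.23 CPM in apigenin libraries 1, 2 and 3, against 7.88, 8.27 and 8.65 CPM in DMSO libraries 1, 2 and 3. The apigenin values enclosed the DMSO values. Its log2 fold change of -0.05 ± 0.132 did not pass (95% interval -0.34 to 0.23, adjusted p = 0.854), and it was 0.09 with the length trend removed (95% interval -0.18 to 0.36).

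**Figure D3:**
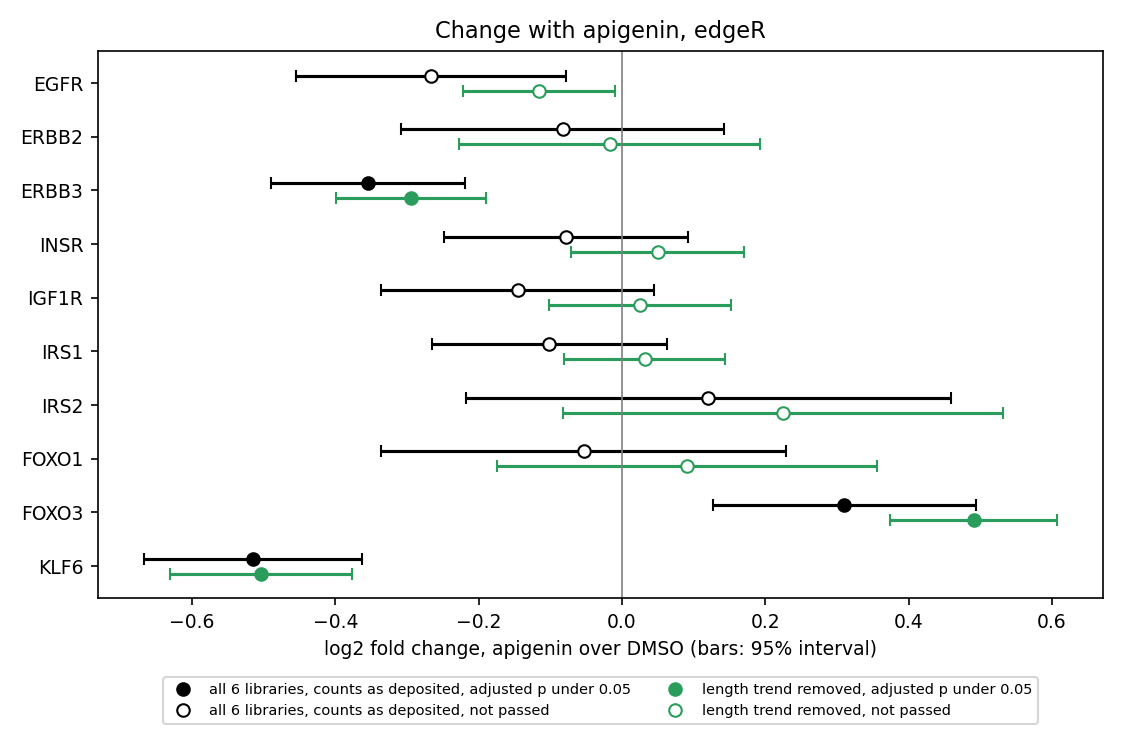
Log2 fold change of each gene, apigenin over DMSO, with its 95% interval from edgeR, on the counts as deposited (black) and with the trend on gene length removed (green). Filled points passed at an adjusted p under 0.05, which were ERBB3, FOXO3 and KLF6 under both settings.

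Within each group the genes kept nearly the same order of level per length. With apigenin the FPKM averaged 16.9 ± 2.75 for EGFR, 14.4 ± 0.883 for ERBB3, 10.6 ± 0.858 for KLF6, 8.11 ± 1.002 for IRS1, 6.22 ± 0.743 for INSR, 5.05 ± 0.718 for FOXO3, 4.26 ± 0.634 for IGF1R, 2.49 ± 0.219 for ERBB2, 1.04 ± 0.176 for IRS2 and 0.749 ± 0.0984 for FOXO1 (SD, n = 3). With DMSO the FPKM averaged 20.3 ± 0.487 for EGFR, 18.5 ± 0.659 for ERBB3, 15.1 ± 0.521 for KLF6, 8.71 ± 0.117 for IRS1, 6.57 ± 0.134 for INSR, 4.71 ± 0.214 for IGF1R, 4.08 ± 0.105 for FOXO3, 2.64 ± 0.203 for ERBB2, 0.953 ± 0.155 for IRS2 and 0.778 ± 0.0352 for FOXO1. FOXO3 stood above IGF1R with apigenin and below it with DMSO. Among apigenin libraries the values of neighbours in the order overlapped for EGFR and ERBB3, INSR and FOXO3, FOXO3 and IGF1R, and IRS2 and FOXO1. Among DMSO libraries they overlapped for IRS2 and FOXO1 alone. The CV over libraries was larger with apigenin than with DMSO for 9 of the 10 genes, and IRS2 was the exception (16.3% with apigenin and 16.4% with DMSO). Over genes in general, pairs of apigenin libraries also differed more than pairs of DMSO libraries. The chi-square per degree of freedom was 8.81 to 27.5 with apigenin and 4.35 to 5.15 with DMSO. The share of all tested genes with a larger CV with apigenin was not counted.

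**Figure D4:**
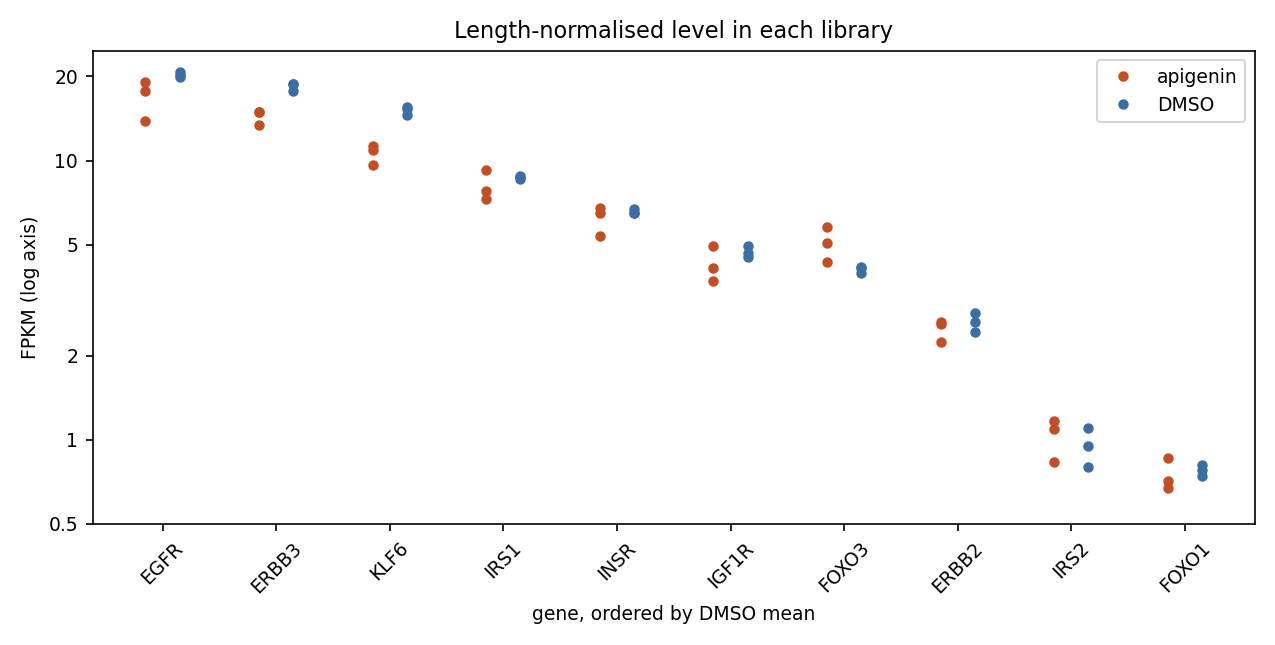
FPKM of each gene on a log axis in the 3 apigenin libraries (orange, left of each pair) and the 3 DMSO libraries (blue), ordered by the DMSO mean. EGFR, ERBB3 and KLF6 lead in both groups, and IRS2 and FOXO1 stand lowest, near 1 FPKM.

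Among ligands and receptor regulators, EREG rose and the others did not pass. EREG encodes epiregulin, a ligand of EGFR and ERBB4. It had 85.3, 96.1 and 91.6 CPM in apigenin libraries 1, 2 and 3, against 53.5, 56.1 and 57.0 CPM in DMSO libraries 1, 2 and 3. The groups were far apart relative to their spread, and the log2 fold change was 0.71 ± 0.067 (adjusted p = 3.04e-05). EREG passed in all 18 alternatives and stood at 0.73 with the length trend removed. EREG overlaps LOC105377276, which had 206 reads over the 6 libraries. In this list of 16 ligands, ERBB4 and feedback regulators, 12 were tested, 1 rose and 11 did not pass. Over all tested genes 2.76% were higher and 4.22% lower. The list had a median log2 fold change of -0.04, against 0.00 over all tested genes. By edgeR 3 members were lower at an unadjusted p under 0.05, and DESeq2 and limma on filtered log2(FPKM + 1) called 0 lower. ERRFI1, an inhibitor that EGFR signalling induces, had 263 ± 5.08 CPM with apigenin and 288 ± 4.38 CPM with DMSO (log2 fold change -0.13 ± 0.051, adjusted p = 0.127, and -0.05 with the length trend removed).

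Of 12 tested genes among ligands and adaptors of the insulin branch, SOS1 rose, GAB2 and IGF2R fell, and 9 did not pass (median log2 fold change -0.04). Among all tested genes 2.76% were higher and 4.22% lower. SOS1, an exchange factor that links receptors to RAS, had 141, 171 and 126 CPM in apigenin libraries 1, 2 and 3, against 92.5, 85.4 and 85.1 CPM in DMSO libraries 1, 2 and 3. Its log2 fold change was 0.74 ± 0.091 (adjusted p = 0.000343) and 0.86 with the length trend removed, and it passed in 17 of 18 alternatives, limma on unfiltered log2(FPKM + 1) being the exception (adjusted p = 0.0798). GAB2, a docking protein that recruits PI3K, had 18.4 ± 3.65 CPM with apigenin and 25.1 ± 0.645 CPM with DMSO (log2 fold change -0.44 ± 0.121, adjusted p = 0.0421, and -0.36 with the length trend removed). The GAB2 gene overlaps USP35, which had 2190 reads over the 6 libraries. IGF2R, which clears insulin-like growth factor 2 from the cell surface, had 361 ± 44.1 CPM with apigenin and 436 ± 4.77 CPM with DMSO (-0.27 ± 0.074, adjusted p = 0.0424). It is 14061 nucleotides long and stood at -0.09 with the length trend removed (adjusted p = 0.153). GAB2 and IGF2R lost their calls without apigenin 1, DMSO 1, DMSO 2 or DMSO 3, with adjusted p over all alternatives of up to 0.258 for GAB2 and 0.257 for IGF2R.

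Of 21 genes for PI3K and AKT kinases, subunits and phosphatases, all tested, 3 fell and 18 did not pass. By the same test 2.76% of all tested genes were higher and 4.22% lower. The median log2 fold change of the 21 was -0.14, and it was -0.06 with the length trend removed. By edgeR 0 of the 21 were higher, against 1 at an unadjusted p under 0.05 and 0 by DESeq2 and limma on filtered log2(FPKM + 1). TRIB3, which encodes a pseudokinase that binds AKT and is induced by stress, had 95.9 ± 4.69 CPM with apigenin and 119 ± 4.77 CPM with DMSO (log2 fold change -0.32 ± 0.062, adjusted p = 0.00846). It lost its call without DMSO 2 or DMSO 3 (adjusted p over all alternatives of up to 0.0745). The class II kinase genes PIK3C2A (-0.40 ± 0.089, adjusted p = 0.0179) and PIK3C2B (-0.25 ± 0.070, adjusted p = 0.046) also fell, and both lost their calls without apigenin 1 or any 1 DMSO library (adjusted p over all alternatives of up to 0.193 for PIK3C2A and 0.204 for PIK3C2B). With the length trend removed TRIB3 stood at -0.36 and PIK3C2A at -0.29, and PIK3C2B stood at -0.14 and did not pass (adjusted p = 0.114). PIK3CA, the catalytic subunit gene that overlaps KCNMB3, did not pass (log2 fold change -0.08 ± 0.076). PIK3R1, the regulatory subunit gene, did not pass either (-0.20 ± 0.103, and -0.07 with the length trend removed), but it did in 1 of 18 alternatives, without apigenin 2 (-0.34, adjusted p = 0.0147). The kinase genes AKT1 (-0.04 ± 0.057) and AKT2 (-0.06 ± 0.060) did not pass in any of the 18.

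Of 17 genes of the mTOR complexes and their regulators, 16 were tested and 0 passed by edgeR, against 6.99% of all tested genes. At an unadjusted p under 0.05, 2 were higher and 3 lower, and DESeq2 and limma on filtered log2(FPKM + 1) called 0. The median log2 fold change was -0.05.

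Of 23 other FOXO family members and known targets, 19 were tested, 2 rose, 1 fell and 16 did not pass. Of all tested genes 2.76% were higher and 4.22% lower. The median log2 fold change of the 19 was -0.03. IGFBP1, a liver gene that FOXO1 induces and insulin represses, had 64.0, 58.9 and 68.2 CPM in apigenin libraries 1, 2 and 3, against 45.2, 46.6 and 46.4 CPM in DMSO libraries 1, 2 and 3. It rose by 0.47 ± 0.071 (adjusted p = 0.00181) on the log2 scale, passed in all 18 alternatives and stood at 0.35 with the length trend removed. CCND1, the cyclin D1 gene that FOXO factors repress, rose by 0.22 ± 0.057 (adjusted p = 0.0345), and CITED2, a coregulator gene, fell by 0.25 ± 0.060 on the log2 scale (adjusted p = 0.0274). Both lost their calls without apigenin 1 or any 1 DMSO library (adjusted p over all alternatives of up to 0.197 for CCND1 and 0.161 for CITED2), and with the length trend removed CCND1 stood at 0.22 and CITED2 at -0.30. CDKN1B, the cell cycle inhibitor gene induced by FOXO factors, had a log2 fold change of -0.03 ± 0.070, TXNIP of -0.08 ± 0.190 and SESN3 of 0.12 ± 0.234, and none of the 3 passed by edgeR, DESeq2 or limma.

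In the KLF family of zinc finger factors, 3 other genes fell. Of 16 listed, 12 were tested, KLF13, KLF12 and KLF3 fell, and 9 did not pass, with a median log2 fold change of -0.18 against 0.00 over all tested genes. By the same test 4.22% of all tested genes were lower. By edgeR 0 rose (1 at an unadjusted p under 0.05), whereas DESeq2 and limma on filtered log2(FPKM + 1) each called 1 higher. KLF12, a repressor gene, had 3.15, 6.26 and 4.67 CPM in apigenin libraries 1, 2 and 3, against 8.42, 9.23 and 8.71 CPM in DMSO libraries 1, 2 and 3 (log2 fold change -0.90 ± 0.197, adjusted p = 0.0159). KLF13 fell by 0.28 ± 0.064 (adjusted p = 0.0183) and KLF3, which overlaps KLF3-AS1, fell by 0.22 ± 0.061 on the log2 scale (adjusted p = 0.0428). These 3 lost their calls without apigenin 1 or any 1 DMSO library (adjusted p over all alternatives of up to 0.142 for KLF12, 0.136 for KLF13 and 0.173 for KLF3), and with the length trend taken out KLF12 stood at -0.74 and KLF13 at -0.20, while KLF3 missed the threshold (adjusted p = 0.0571). Under that setting 1 of the 12 was higher by edgeR, KLF5 (adjusted p = 0.0302), and 4 were lower. KLF2 (adjusted p = 0.0441) and KLF4 (adjusted p = 0.042) were among the lower ones. Over all tested genes 4.63% were higher and 5.38% lower there.

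**Figure D5:**
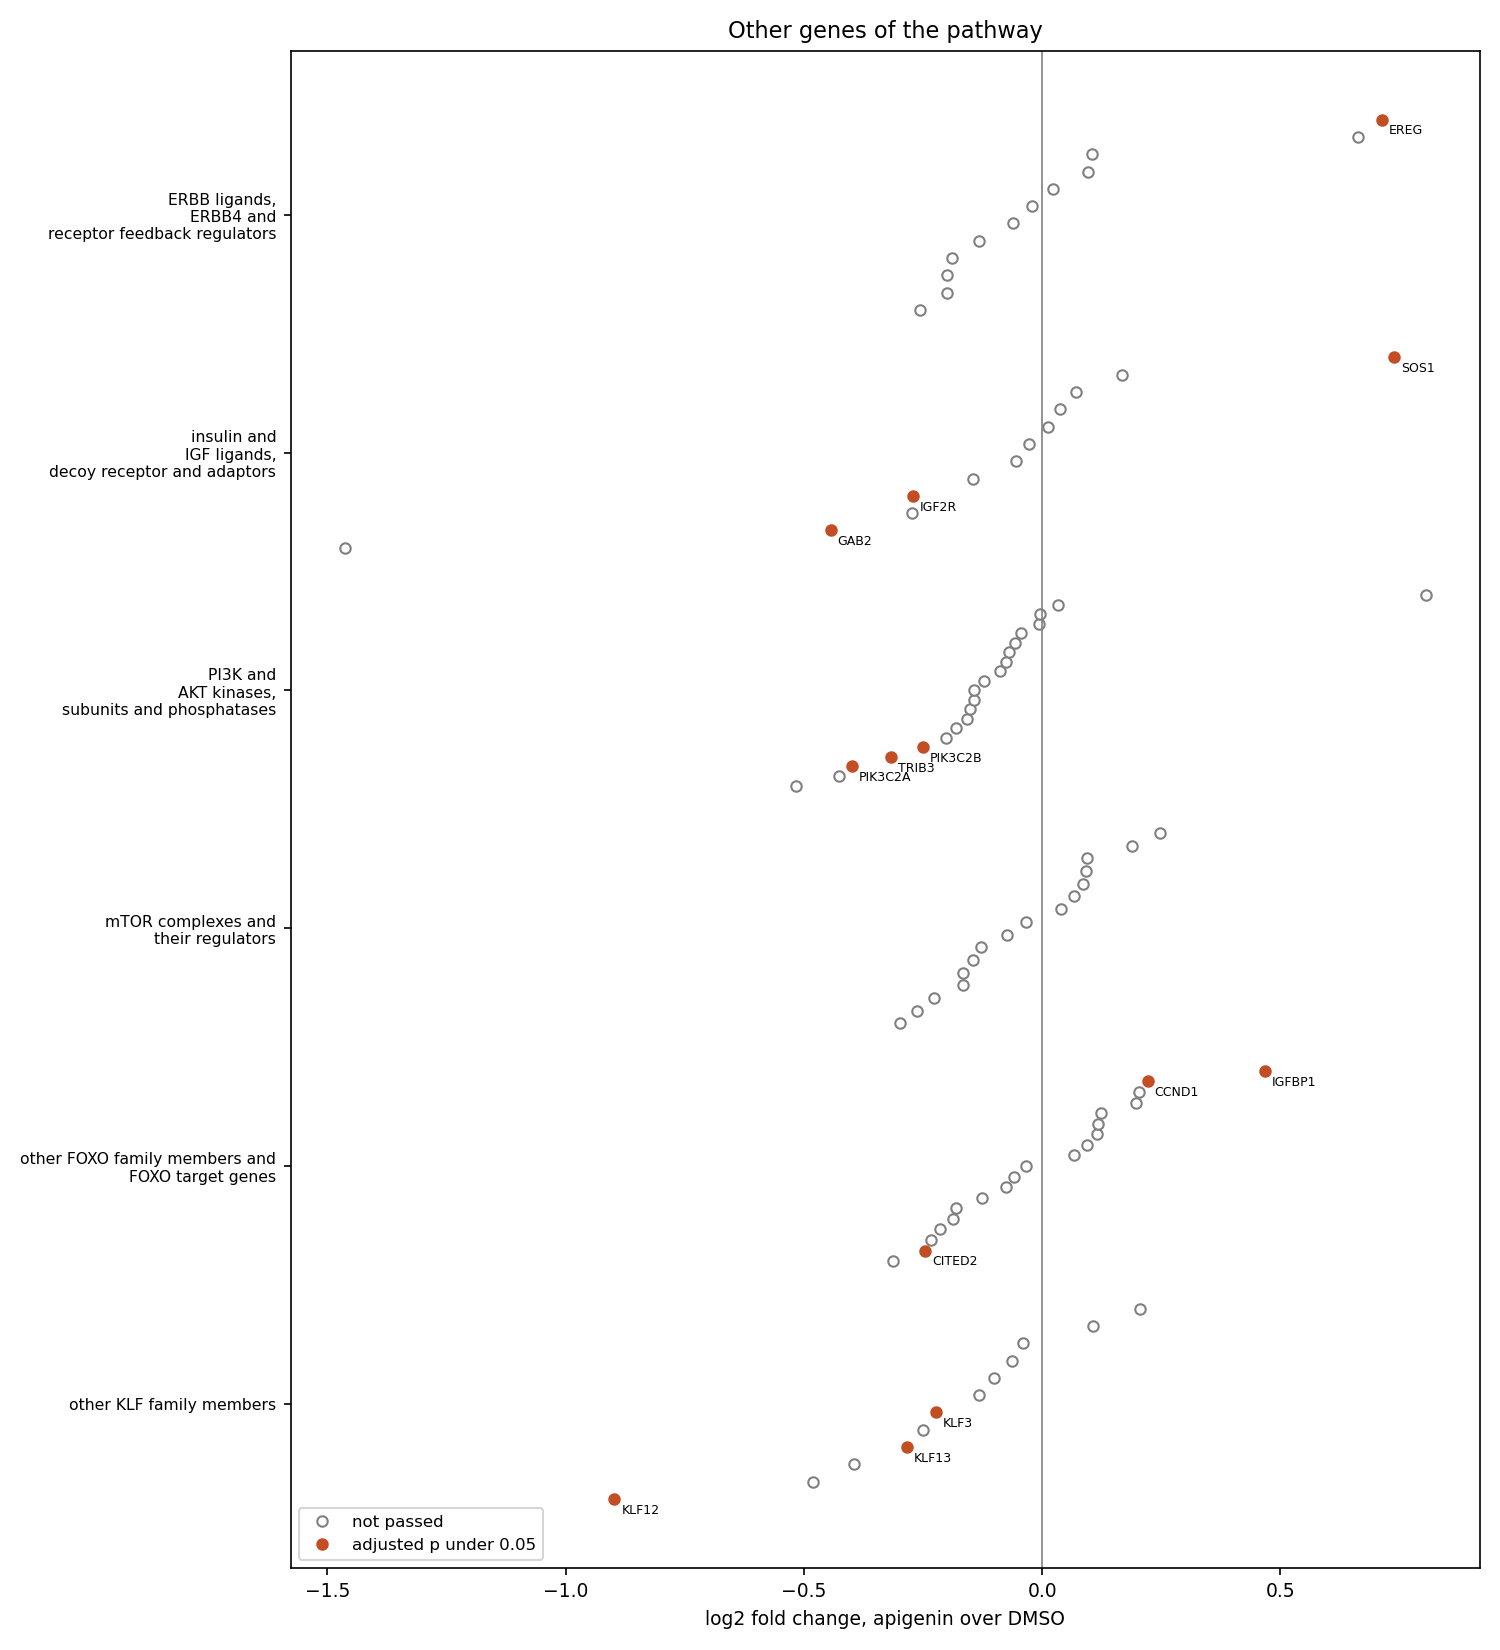
Log2 fold change, apigenin over DMSO, of the tested genes of 6 lists of the pathway, 1 row per gene ordered by fold change within its list. Filled points passed at an adjusted p under 0.05 and are named, with EREG, SOS1, IGFBP1 and CCND1 higher and KLF12, GAB2, PIK3C2A, TRIB3, KLF13, IGF2R, PIK3C2B, CITED2 and KLF3 lower.

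The genes whose pattern over the 6 libraries was most like that of a changed gene were found by the root mean square difference of mean-centred log2 CPM, among 9588 sufficiently expressed genes. Nearest to KLF6 were MTCL1 (0.0257), SSX2IP (0.0429) and DAPK2 (0.045). Nearest to ERBB3 were DENND4A (0.0243), RAB3IP (0.0265) and POF1B (0.0269). Nearest to FOXO3 were ABCA1 (0.0325), which encodes a cholesterol exporter, MAP3K8 (0.0518) and DGKG (0.0528). ABCA1 had 47.7 ± 5.94 CPM with apigenin and 37.4 ± 1.65 CPM with DMSO (log2 fold change 0.35 ± 0.089, adjusted p = 0.0313), and neither MAP3K8 (adjusted p = 0.127) nor DGKG (adjusted p = 0.0684) passed.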

How the data were processed

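Total RNA of 3 apigenin and 3 DMSO samples was sequenced, with libraries from a VAHTS Universal V6 kit according to the labels. The submitters' processing notes name the tools fastp, HISAT2 and HTSeq and the build GRCh38 (hg38), but their versions and the strand setting were not given in the sources used here. Both tables are the authors' own: they deposited raw read counts per gene symbol and FPKM values, and the deposited FPKM equal count over gene length and library total for 100% of values (relative tolerance 0.0001), which gave the lengths. Of 23059 symbols, 21748 matched a RefSeq symbol, used for overlaps.

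Counts were compared with edgeR 4.0.16 (R 4.3.3; quasi-likelihood test, two-sided, TMM factors, default filter on low counts, no block) over all 15173 tested genes with Benjamini-Hochberg adjustment at 0.05. The SE is the log2 fold change over the root of F. The 18 alternatives used DESeq2 1.42.0, limma 3.58.1 on log2(FPKM + 1) and log2(FPKM + 0.1) (0.5 FPKM or more in 3 libraries, or no filter), other scaling factors and filters, the replicate number, the length trend (lowess, span 0.3) and each library left out. On the log2(FPKM + pseudocount) scale the change of low genes is understated. Simulated data were first used to test edgeR, DESeq2, edgeR with the length trend removed and limma on filtered log2(FPKM + 1). The other alternatives were not tested in this way. The genes, lists and settings were chosen with earlier results of these data known. Named were the 10 genes, up to 4 called genes of each list by p (mean 1 CPM or more), genes fixed by name (1 of them is not reported here) and the 3 nearest in pattern (mean of 10 CPM or more) to each called gene. Protein sequences were not analysed here.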

Additional observations from a re-analysis of the deposited data

How the results depend on the processing

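Of the 10 genes, 1 was higher and 2 lower with apigenin. None was higher (0) with library totals only or by limma on log2(FPKM + 1), log2(FPKM + 0.1) or unfiltered log2(FPKM + 1), and by the last 0 were lower. Leaving out 1 library, with or without the length trend, gave 0 to 1 higher and 1 to 5 lower, with 5 lower without apigenin 2 and 1 without DMSO 1. Over all 15173 tested genes edgeR called 2.76% higher and 4.22% lower. The lists held 12, 12, 21, 16, 19 and 12 tested genes in the order of the results. Of these listed genes, 4 were higher and 9 lower. There were 7 higher with no filter, 7 higher with the length trend removed and the replicate block, and 2 higher and 0 lower by unfiltered limma, while limma gave 3 lower on log2(FPKM + 1) and 2 lower on log2(FPKM + 0.1). Leaving out 1 library gave 3 to 8 higher and 0 to 22 lower. Over all genes, 419 were higher and 641 lower, against 727 and 973 by DESeq2, 865 and 1096 with no filter, 702 and 816 with the length trend removed, 828 and 908 with the replicate block added to that, 352 and 303 by limma on log2(FPKM + 1), 336 and 289 on log2(FPKM + 0.1), and 78 and 60 unfiltered. Leaving out 1 library gave 103 to 1344 higher and 157 to 1546 lower. The cause was not tested. Among the receptor, adaptor and factor genes and the genes of the lists named with them in the results, directions turned for 10, and none of these passed where it turned: with the length trend removed, INSR was 0.050, IGF1R 0.025, IRS1 0.032, FOXO1 0.090, PIK3CA 0.055 and AKT2 0.059, and with the replicate block as well INSR 0.049, IGF1R 0.024, IRS1 0.031, FOXO1 0.089, PIK3CA 0.056 and AKT2 0.056. With 1 library left out, with or without the length trend (the fits with both were added after seeing the data), log2 fold changes ran from -0.14 to 0.041 for ERBB2, -0.14 to 0.087 for INSR, -0.26 to 0.059 for IGF1R, -0.20 to 0.064 for IRS1, -0.16 to 0.13 for FOXO1, -0.12 to 0.095 for PIK3CA, -0.11 to 0.12 for AKT2, -0.14 to 0.010 for CDKN1B, -0.34 to 0.042 for TXNIP and -0.020 to 0.34 for SESN3. Deviations from the group mean hardly correlated between samples of the same replicate number (-0.0173, -0.0194 and -0.0482). The length trend was not removed for this, so these values cannot decide whether the numbers pair the samples. With the replicate block 455 genes were higher and 776 lower, and EGFR had an adjusted p of 0.0279 (edgeR). Each of the 10 genes had 232 reads or more per library, and the share of counting error in their spread was not tested gene by gene.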

Other observations

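Several genes of the lists stood near the threshold, and they were chosen after their values were seen. SOD2, which encodes the mitochondrial superoxide dismutase and is a FOXO target, averaged 129.6 CPM with apigenin and 113 CPM with DMSO (log2 fold change 0.20, adjusted p = 0.0852, edgeR). It is 17592 nucleotides long, and with the length trend removed it stood at 0.41 (adjusted p = 5.08e-05). KLF5, a proliferation factor of epithelia, averaged 80.1 CPM with apigenin and 69.5 CPM with DMSO (0.20, adjusted p = 0.0531, edgeR) and passed in 9 of 18 alternatives. KLF2 averaged 7.03 CPM with apigenin and 9.24 CPM with DMSO (-0.40, adjusted p = 0.0955, edgeR) and passed in 2 of 18. The kinase gene MTOR averaged 77.2 CPM with apigenin and 90.4 CPM with DMSO (-0.23, adjusted p = 0.0981, edgeR), passed in 2 of 18 and stood at -0.10 with the length trend removed (adjusted p = 0.291).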
